A study of Mus musculus with 2 samples.

Results

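The antioxidant enzymes described here were 10 genes fixed by name, and all 10 of them were among the 23628 genes listed for *Sox9*-GFPHi chondrospheres. They were the superoxide dismutases *Sod1*, *Sod2* and *Sod3*, catalase (*Cat*), the glutathione peroxidases *Gpx1*, *Gpx3*, *Gpx4* and *Gpx7*, the peroxiredoxin *Prdx1* and the thioredoxin *Txn1*. RNA-sequencing was available for 2 libraries of a single group, replicate 1 and replicate 2. Femoral head cells of *Sox9* IRES-EGFP reporter pups, taken at postnatal day 7, were sorted for high GFP and for absence of blood and endothelial surface markers, and single cells then grew into chondrospheres over 3 to 4 weeks in 1% methylcellulose at 5% oxygen, in medium with serum, FGF2, BMP4, IGF1, LIF and TGF-β1. The GFP marks *Sox9* transcription, and how many chondrospheres went into a library is not given in the sources used here. Both libraries shared the reporter allele, the sort, the oxygen level and the growth factors. No library at another oxygen level was analysed here, so the values describe the enzymes at 5% oxygen and not a response to it.

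Superoxide, a by-product of respiration and of NADPH oxidases, is converted by superoxide dismutases to hydrogen peroxide, which catalase, glutathione peroxidases and peroxiredoxins then reduce to water. Most glutathione peroxidases draw electrons from glutathione, and most peroxiredoxins draw them from thioredoxin, which thioredoxin reductase recharges with NADPH. The enzymes are placed in different compartments, with SOD1, GPX1, PRDX1 and TXN1 mainly in the cytosol, SOD2 in mitochondria, catalase in peroxisomes, GPX7 in the endoplasmic reticulum, and SOD3 and GPX3 secreted. SOD3 binds heparan sulfate and is known as an extracellular matrix enzyme of cartilage, a tissue with little oxygen and no vessels.

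The values were read counts per gene that the authors had scaled to a total of 1000000 in each library (CPM). Pairs of values are given in the order replicate 1, replicate 2. The step between the lowest values implied 43280500 and 42150300 reads on genes, and 3 reads corresponded to 0.0693 and 0.0712 CPM. The 10 highest genes took 43.4% and 34.7% of all CPM, so the level of every other gene depends on those few. Genes averaging 1 CPM or more numbered 12631, and the log2 ratio of replicate 2 to replicate 1 had a median of 0.30 over them. Ratios between the libraries are therefore given after subtracting that median ("centred") unless stated otherwise, on the scale of log2 of CPM plus 0.1. The 8 chondrocyte markers, *Col2a1* and *Acan* among them, had a median of 5017 CPM. The 7 erythroid genes, looked at because red cells are rich in catalase and peroxiredoxin, summed to 0.0930 and 0.120 CPM with 6 of the 7 at or under 3 reads in both libraries, and the 4 endothelial genes to 0.231 and 0.166 CPM with *Cdh5*, *Kdr* and *Tek* at 0. Of the adipocyte markers, *Adipoq*, *Plin1* and *Cidec* were listed at 0 in both libraries, whereas *Fabp4* had 6.89 and 6.62 CPM. Of the 6 leukocyte markers, *Ptprc*, *Adgre1* and *Itgam* stayed below 3 reads in both libraries and the sum was 3.26 and 3.50 CPM. The 4 fibroblast markers summed to 2.40 and 2.86 CPM with *Pi16* at 0, and the 4 osteoblast markers to 4.75 and 12.2 CPM. The 3 smooth muscle markers summed to 53.6 and 93.0 CPM, nearly all of it *Acta2*, while *Myh11* had 0.139 CPM in replicate 1 and 0 in replicate 2.

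Glutathione peroxidases differ at the codon of their catalytic residue, and the coding sequence around it is shown because it separates *Gpx7* from the other members. The sequences come from GENCODE M21 transcripts on GRCm38, 5′ to 3′ on the coding strand, with the codon in capitals and 30 bases on each side. In *Gpx1*, *Gpx3* and *Gpx4* the codon is TGA, a stop codon elsewhere, which is annotated there as selenocysteine. In *Gpx7* the codon that aligns with it is TGT, for cysteine, and in the related *Gpx8* it is TGC, for the same residue.
Gpx1: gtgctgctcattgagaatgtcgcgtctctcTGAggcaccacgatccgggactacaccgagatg
Gpx3: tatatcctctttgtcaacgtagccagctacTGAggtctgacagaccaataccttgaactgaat
Gpx4: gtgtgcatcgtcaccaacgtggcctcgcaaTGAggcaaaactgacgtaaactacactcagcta
Gpx7: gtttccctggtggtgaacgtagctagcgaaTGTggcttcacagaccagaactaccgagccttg
Gpx8: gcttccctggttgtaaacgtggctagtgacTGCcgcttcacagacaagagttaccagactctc
The codon lies in exon 1 of 2 of *Gpx1* (chr9:108339451-108339453, plus strand), in exon 2 of 5 of *Gpx3* (chr11:54907256-54907258, plus strand) and in exon 3 of 7 of *Gpx4* (chr10:80054737-80054739, plus strand). In *Gpx7* it lies in exon 2 of 3 (chr4:108403430-108403432, minus strand) and in *Gpx8* in exon 2 of 3 (chr13:113045661-113045663, minus strand). The 3 selenocysteine enzymes and the cysteine enzymes thus need different translation machinery, and the genes for selenocysteine insertion are taken up further down.

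All 10 enzymes were expressed in both libraries, at 42.4 to 1672 CPM in replicate 1 and at 53.7 to 981 CPM in replicate 2. Their ranks by mean CPM among all genes listed, which also reflect gene length, ran from 53 for *Gpx3* to 2546 for *Gpx7*. Together they summed to 2580 and 2367 CPM. Without *Gpx3* the sum was 909 and 1385 CPM, and for the 8 that are not secreted it was 629.8 and 917 CPM, so the sum of all 10 was the lower in replicate 2 and the sum without *Gpx3* the higher.

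**Figure D1:**
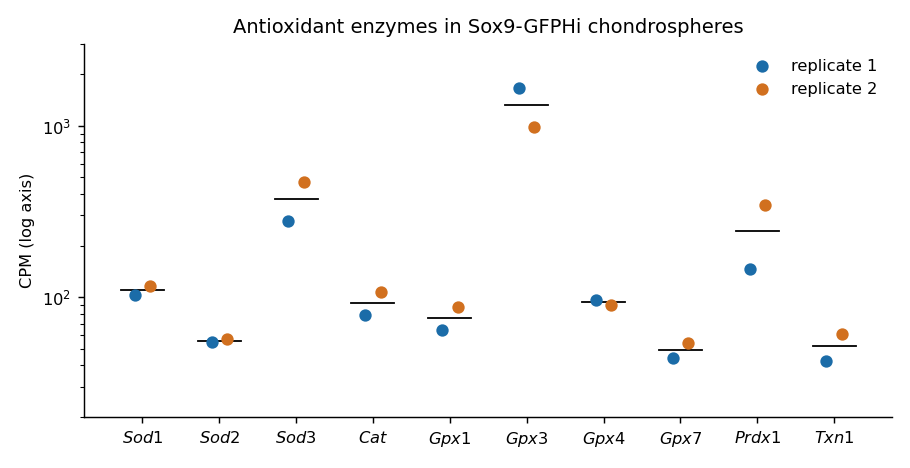
CPM (log axis) of each of the 10 antioxidant enzymes, with replicate 1 in blue, replicate 2 in orange and the mean of both as a line. *Gpx3* lies at 1672 and 981 CPM, and *Prdx1*, *Sod3* and *Gpx3* show the widest gaps between the libraries.

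Among the superoxide dismutases, the mitochondrial *Sod2* was the lowest per length, and either the secreted *Sod3* or the cytosolic *Sod1* was the highest, depending on the length used. *Sod3*, on chromosome 5 of GRCm38 (chr5:52363791-52371418), measured 279 and 468 CPM (373 ± 134 CPM, SD, n = 2). *Sod1*, the copper and zinc enzyme on chromosome 16 (chr16:90220754-90226329), measured 103 and 117 CPM (110.2 ± 9.58 CPM, SD, n = 2). *Sod2*, the manganese enzyme on chromosome 17 (chr17:13006846-13040063), measured 54.6 and 57.0 CPM (55.8 ± 1.66 CPM, SD, n = 2). *Sod1* and *Sod2* thus differed little between the libraries, while *Sod3* was 1.68 times higher in replicate 2 before centring. Per kilobase of annotated exonic length, the log2 ratio of *Sod2* to *Sod3* was -4.11 ± 0.49 (SD, n = 2), and that of *Sod1* to *Sod2* was 2.31 ± 0.08 (SD, n = 2). *Sod2* was the lower in both libraries in each case. For *Sod1* and *Sod3* the order turned with the length. The exons of *Sod1* cover 3970 bases because 1 of its 2 transcripts retains introns, whereas its coding transcript has 641 bases. Per kilobase of exonic length the log2 ratio of *Sod1* to *Sod3* was -1.52 in replicate 1 and -2.09 in replicate 2, and per kilobase of the longest coding transcript it was 1.11 and 0.54. Of the *Sod1* coding transcript, 23.1% of the 50-base windows, the read length, also occur in the pseudogene *Gm8566*, which had 1.52 and 2.99 CPM. *Sod1* also overlaps *Scaf4* on the opposite strand, and whether counting used the strand is not given in the sources used here. *Ccs*, the chaperone that loads copper into SOD1, had 15.7 and 22.5 CPM.

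Catalase, on chromosome 2 (chr2:103453849-103485160), measured 78.4 and 107 CPM (92.7 ± 20.2 CPM, SD, n = 2). Its exons cover 2613 bases under both length definitions, and none of its 50-base windows occurs in another gene. Per kilobase of exonic length *Prdx1*, another peroxide-removing enzyme, exceeded it by a log2 ratio of 0.67 in replicate 1 and 1.46 in replicate 2.

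*Gpx3*, the secreted glutathione peroxidase that is abundant in plasma, was the highest of the 10 enzymes per kilobase in both libraries under both length definitions. It lies on chromosome 11 (chr11:54902453-54910377) and measured 1672 and 981 CPM (1327 ± 488 CPM, SD, n = 2). *Gpx4*, which reduces lipid hydroperoxides in membranes, lies on chromosome 10 (chr10:80047166-80056439) and measured 96.6 and 89.9 CPM (93.2 ± 4.72 CPM, SD, n = 2). Both were lower in replicate 2, the only members of the 10 for which CPM were. *Gpx1*, the main cytosolic form on chromosome 9 (chr9:108338903-108340343), measured 64.1 and 87.4 CPM (75.8 ± 16.5 CPM, SD, n = 2). *Gpx7*, on chromosome 4 (chr4:108400390-108406961), measured 44.5 and 53.7 CPM (49.1 ± 6.55 CPM, SD, n = 2). Per kilobase of exonic length the log2 ratio of *Gpx1* to *Gpx3* was -4.37 and -3.16, and that of *Gpx3* to *Gpx7* was 4.74 and 3.70. *Gpx1* exceeded *Gpx7* by 0.45 ± 0.12 (SD, n = 2). *Gpx4* and *Gpx1* were not separated, with a log2 ratio per kilobase of exonic length of 0.33 in replicate 1 and -0.22 in replicate 2, whereas by the longest coding transcript it was 0.70 and 0.15 and *Gpx4* was separated as the higher.

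The level of *Gpx4* is uncertain. Of the 50-base windows of its coding transcript, 61.7% also occur in *Gpx4-ps2*, annotated as a transcribed processed pseudogene, and the deposited values list it at 65.1 CPM in both libraries. The authors' counting estimates how reads that fit several places are divided, and so may have split them between the gene and its copy. With both added, an alternative chosen after seeing the data, *Gpx4* would measure 162 and 155 CPM and would exceed *Gpx1* by a mean log2 ratio of 0.82 per kilobase of exonic length in place of 0.06.

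Of the family outside the 10 members, *Gpx2*, *Gpx5* and *Gpx6* are not among the genes listed. *Gpx8*, which like *Gpx7* resides in the endoplasmic reticulum, had 98.6 and 133 CPM. It exceeded *Gpx7* by a log2 ratio of 1.53 ± 0.11 (SD, n = 2) per kilobase of exonic length, so the cysteine forms of the endoplasmic reticulum were both present, with *Gpx8* the higher in both libraries.

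*Prdx1*, the cytosolic peroxiredoxin, was the member with the widest ratio between the libraries before centring. It lies on chromosome 4 (chr4:116685544-116700822) and measured 146 and 344 CPM (245 ± 140.0 CPM, SD, n = 2), a 2.36-fold difference. Its 50-base windows occur in other genes for 10.9% of positions, and the listed genes among those had 5.08 and 9.48 CPM in sum. Per kilobase of exonic length it was the highest of the 6 peroxiredoxins in both libraries. *Prdx6*, the only peroxiredoxin with a single catalytic cysteine, measured 49.4 and 121 CPM, so it too was higher in replicate 2. The log2 ratio of *Prdx1* to *Prdx6* per kilobase of exonic length was 2.22 and 2.17. *Prdx2*, the other typical cytosolic form, had 68.8 and 87.2 CPM. *Prdx5* had 63.8 and 83.2 CPM, *Prdx4* of the secretory pathway had 31.2 and 40.3 CPM, and the mitochondrial *Prdx3* had 24.3 and 27.0 CPM. Per kilobase, *Prdx1* made up 33.8% of the 6 peroxiredoxins in replicate 1 and 46.5% in replicate 2 (40.1% ± 8.98, SD, n = 2), and the next in both libraries was *Prdx5* with 21.0% and 16.01%. With the longest coding transcript as length the mean share of *Prdx1* was 33.8%.

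*Txn1*, the cytosolic thioredoxin on chromosome 4 (chr4:57943373-57956411), measured 42.4 and 61.4 CPM (51.9 ± 13.4 CPM, SD, n = 2). Its reactive site is a pair of cysteines separated by a glycine and a proline, and the mitochondrial *Txn2* keeps the same arrangement. The 2 cysteine codons are in capitals here, with the bases on each side in lower case, to show the site that the pair of genes shares.
Txn1: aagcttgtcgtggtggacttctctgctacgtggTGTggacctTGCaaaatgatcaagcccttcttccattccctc
Txn2: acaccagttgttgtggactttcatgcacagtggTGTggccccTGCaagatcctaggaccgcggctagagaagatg
The codon of the tryptophan before the cysteines and those up to the last cysteine lie within chr4:57951821-57951835 for *Txn1* and chr15:77924651-77924665 for *Txn2*, each in exon 2 and on the minus strand. *Txn2* had 39.7 and 58.6 CPM. Per kilobase of exonic length *Txn1* exceeded *Txn2* by a log2 ratio of 2.10 in replicate 1 and 2.07 in replicate 2. The centred ratios between the libraries were 0.23 for *Txn1* and 0.26 for *Txn2*, both below the median absolute ratio of all genes (0.30). By the longest coding transcript, the mean log2 ratio of *Txn1* to *Txn2* within a library was 1.05. *Txnrd1*, the cytosolic reductase, measured 87.1 and 223 CPM, the mitochondrial *Txnrd2* 3.55 and 3.001 CPM, and *Txnrd3* 2.63 and 3.44 CPM. *Txnrd1* made up 87.6% and 94.3% of the 3 reductases per kilobase of exonic length, and *Txnrd2* was the lowest gene of the thioredoxin system by that measure, but by the longest coding transcript the lowest mean was that of *Txnrd3*. *Txnip*, which binds and blocks reduced thioredoxin, had 126 and 105 CPM, and its level per kilobase was not separated from that of *Txn1* (log2 ratio of *Txn1* to *Txnip* of 0.00 in replicate 1 and 0.79 in replicate 2).

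**Figure D2:**
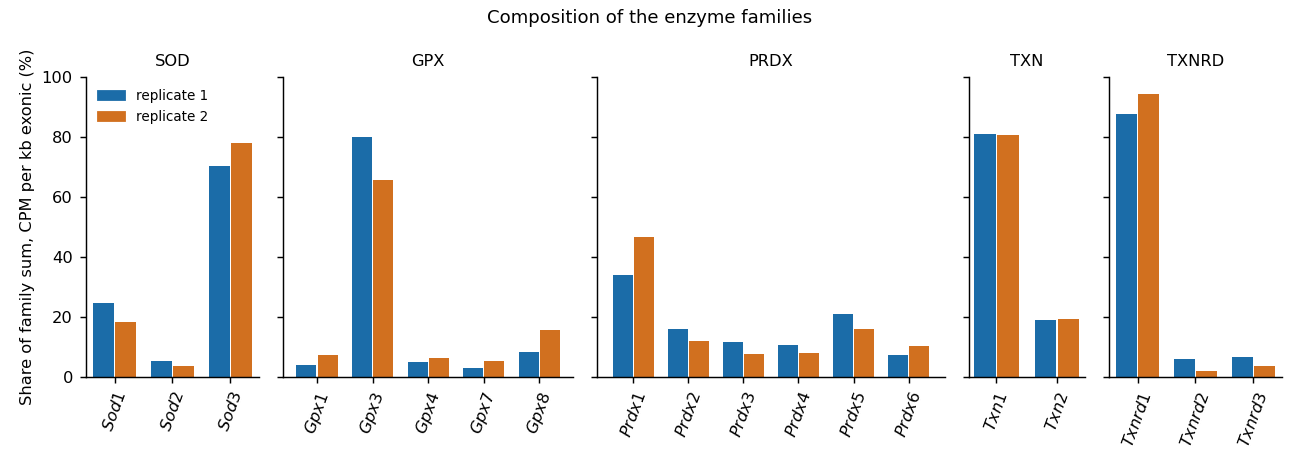
Share (%) of each gene in the sum of its family, from CPM per kilobase of exonic length, for superoxide dismutases, glutathione peroxidases, peroxiredoxins, thioredoxins and thioredoxin reductases, with replicate 1 in blue and replicate 2 in orange. *Gpx3* holds 80.1% and 65.8% of the glutathione peroxidases and *Sod3* 70.3% and 78.1% of the superoxide dismutases, but *Sod3* holds 30.4% and 39.5% if the longest coding transcript sets the length.

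Across the 10 enzymes, levels were compared per length only, and a pair of neighbours was called separated where the log2 ratio had 1 sign in both libraries and its mean exceeded its SD. The order by mean CPM per kilobase of exonic length was *Gpx3* at 732, *Sod3* at 99.9, *Prdx1* at 80.4, *Gpx4* at 54.1, *Gpx1* at 52.6, *Txn1* at 49.4, *Gpx7* at 38.1, *Cat* at 35.5, *Sod1* at 27.8 and *Sod2* at 5.57. *Gpx3* stood apart from *Sod3* by a log2 ratio of 2.87 ± 1.07 (SD, n = 2), although the ratio was 3.63 in replicate 1 and 2.11 in replicate 2. Of the 9 neighbouring pairs, 6 were separated. With 2 libraries, and with the order taken from the same values, this call is easily met. *Gpx1* and *Txn1* met it at log2 ratios of 0.14 in replicate 1 and 0.05 in replicate 2. It describes these libraries and is no test of the order. *Prdx1* and *Gpx4*, *Gpx4* and *Gpx1*, and *Gpx7* and *Cat* did not differ beyond their spread. By the longest coding transcript the neighbours changed, and *Prdx1* and *Sod3*, *Sod3* and *Gpx4*, and *Gpx7* and *Cat* were the 3 of 9 pairs not separated. *Sod1* came next to *Gpx3* at 172 CPM per kilobase, and *Gpx3* and *Sod2* kept the ends of the order. Both lengths of *Sod2*, 10008 and 5861 bases, were the longest of the 10, and 4 of its 8 transcripts retain introns. Its place at the low end rests on these lengths. Before division by length its mean of 55.8 CPM was above those of *Txn1* (51.9) and *Gpx7* (49.1). The secreted *Sod3* and *Gpx3* together made up 77.8% of the summed level per kilobase of exonic length in replicate 1 and 62.4% in replicate 2 (70.1% ± 10.9, SD, n = 2), and 69.4% and 53.1% by the longest coding transcript.

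**Figure D3:**
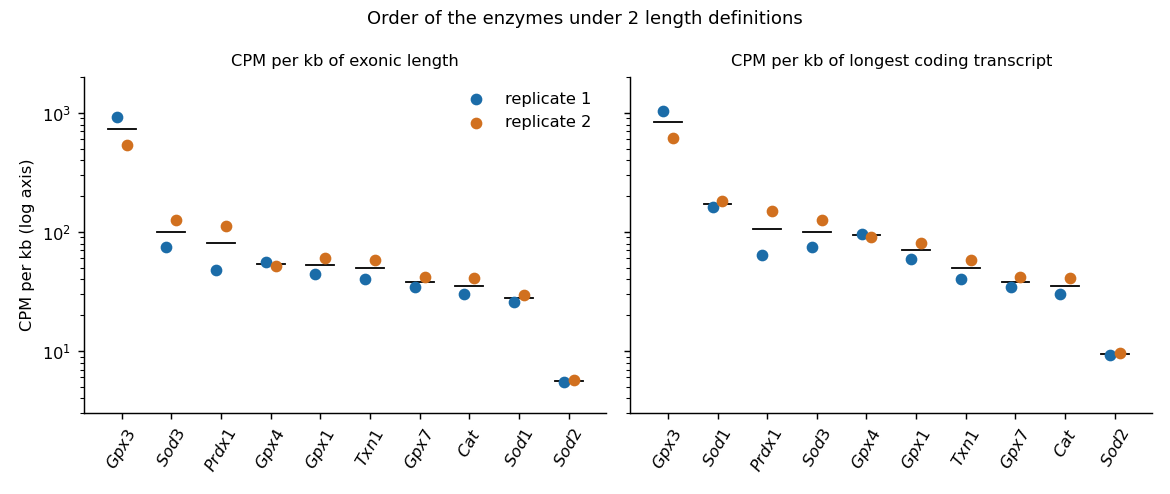
CPM per kilobase (log axis) of the 10 enzymes in descending order of the mean (line), with exonic length on the left and the longest coding transcript on the right, replicate 1 in blue and replicate 2 in orange. *Gpx3* is highest and *Sod2* lowest in both panels, while *Sod1* goes from 27.8 to 172 CPM per kilobase.

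The libraries belong to 1 condition, so no test between groups was made. The difference between them is that between replicates, and the labels do not say whether these came from separate pups. After centring, the log2 ratios of replicate 2 to replicate 1 had a median of 0.06 over the 10 members, against 0 for all 12631 genes by construction, and 5 of the 10 lay above the median of all genes. The median absolute log2 ratio was 0.24 for the members and 0.30 for all genes. More than 2-fold differences were found for 1 of the 10 members, against 13.5% of the 12631 genes. That member was *Gpx3*, lower in replicate 2 by a log2 ratio of -1.07, and 6.06% of all genes were over 2-fold lower. *Prdx1* lay just inside the limit on the other side at 0.93, where 7.43% of all genes were past it. Without centring the count was again 1, but it was *Prdx1* at 1.24 in place of *Gpx3* at -0.77, against 15.1% of all genes, with 11.4% of all genes higher in replicate 2 and 3.71% lower. When the CPM total omitted the 10 highest genes, again without centring, *Prdx1* was at 1.04 and *Gpx3* at -0.96. *Gpx3* was the lower and *Prdx1* the higher in replicate 2 under each scaling tried, so which of the pair passes 2-fold depends on the scaling and the direction did not. Counting error alone was small at these levels, from 0.01 for *Gpx3* to 0.04 for *Gpx7* on the log2 scale, and before centring the ratio exceeded 2 counting errors for 9 of the 10 members, all but *Sod2*. *Gpx3* rested on about 72356 reads in replicate 1 and *Txn1*, the lowest there, on about 1837.

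The pair of secreted enzymes differed between the libraries in opposite directions. *Sod3* was higher in replicate 2 by a centred log2 ratio of 0.44 while *Gpx3* was lower, so the log2 ratio of *Gpx3* to *Sod3*, given above per kilobase, was narrower in replicate 2. A ratio within a library does not depend on its scaling. After centring, most chondrocyte markers were lower in replicate 2 as well. *Col2a1* measured 148953 and 100682 CPM, 7 of the 8 markers lay below the median of all genes, and *Matn3* and *Col9a1*, 2 of the 8, were over 2-fold lower, against 6.06% of all genes. Without centring *Matn3* alone was, and *Col9a1* was at -0.79. Osteoblast markers went the other way. *Sp7* (1.96 and 6.81 CPM) and *Alpl* (0.462 and 1.92 CPM) were over 2-fold higher in replicate 2 at centred log2 ratios of 1.44 and 1.54, 2 of the 3 osteoblast markers averaging 1 CPM or more, against 7.43% of all genes. The part of these marker differences in that of *Gpx3* was not tested. In such bulk libraries, fewer cells of a type and less RNA per cell cannot be told apart.

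**Figure D4:**
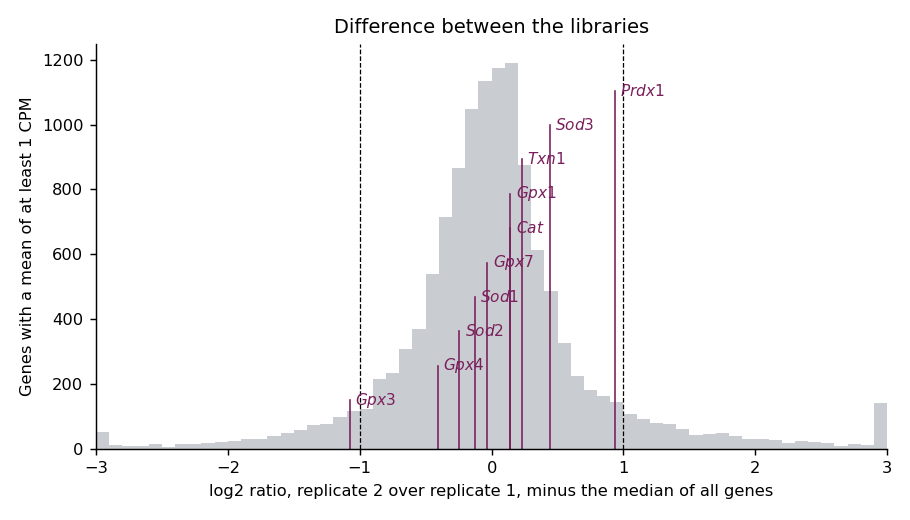
Histogram of the centred log2 ratio of replicate 2 to replicate 1 for 12631 genes averaging 1 CPM or more (values past 3 in either direction are drawn in the outermost bins), with the 10 enzymes as vertical lines at staggered heights and 2-fold limits as dashed lines. *Gpx3* lies past the lower limit at -1.07 and *Prdx1* just inside the upper at 0.93, and the other 8 lie between -0.41 and 0.44.

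*Prdx1* and *Txnrd1* are known targets of NRF2, the transcription factor that KEAP1 holds back until electrophiles or oxidants release it. Of the 11 regulators and targets of NRF2 in the list, all averaging 1 CPM or more, 2 were over 2-fold higher in replicate 2 after centring and 0 over 2-fold lower. The background for higher genes was 7.43%. *Nqo1*, a quinone reductase, measured 77.9 and 407 CPM, a centred log2 ratio of 2.08, and *Txnrd1* was at 1.05. The other 9 lay within 2-fold, 5 of them above the median of all genes. *Hmox1*, which degrades heme, was the highest gene of the list by mean CPM per kilobase, though below *Nqo1* in replicate 2, and had 451 and 369 CPM, a centred log2 ratio of -0.59. *Srxn1*, which restores overoxidized peroxiredoxins, was at 0.28, the cystine carrier *Slc7a11*, the lowest of the list per kilobase, at 0.32, and the glutathione synthesis genes *Gclc* and *Gclm* at -0.06 and -0.03. *Nfe2l2*, which encodes NRF2, had 34.2 and 60.02 CPM, and *Keap1* had 42.6 and 42.7 CPM. Over the list, 7 of 11 genes lay above the median of all genes, with a median centred log2 ratio of 0.27.

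NRF2 binds antioxidant response elements, and the letters TGACNNNGC were searched on both strands of RefSeq promoter windows on GRCm38.p6, 250 bases before to 50 after each annotated start. Of the 9 members with a window, 2 held a match, *Prdx1* and *Sod1*, and of all 27025 genes with a window 14.0% did. Of the 9 NRF2 list genes with a window, 5 held 1. *Sod3* has no entry in the promoter table. The matches of the members that held one, and that of *Txnrd1*, are shown 5′ to 3′ on the strand opposite to the gene. The matched letters are in capitals. *Txnrd1*, another known target of NRF2, was added after its values were seen.
Prdx1: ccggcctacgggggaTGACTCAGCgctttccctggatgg
Sod1: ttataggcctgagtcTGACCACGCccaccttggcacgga
Txnrd1: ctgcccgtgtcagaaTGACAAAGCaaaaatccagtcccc
The match lies at chr4:116685466-116685474 for *Prdx1*, at chr16:90220706-90220714 for *Sod1* and at chr10:82859114-82859122 for *Txnrd1*. *Nqo1* had no match in its window. *Txnrd1* has more than 1 annotated start, and its other windows held no match. These are letter matches, not sites shown to be bound. The part of NRF2 in the differences between the libraries was not tested.

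Ranks within a list are by mean CPM per kilobase of exonic length. The wider antioxidant system was read from 12 lists, which hold 78 listed genes besides the members. Of these, 66 averaged 1 CPM or more, against 12631 of all 23628 genes. After centring, 3 of the 66 were over 2-fold higher in replicate 2 and 3 over 2-fold lower, 9.09% in all against 13.5% of all genes. That 13.5% is also the background for each count past 2-fold in either direction in the lists below. Without centring, *Prdx6* and *Gsto1* joined the higher side and *Mt1* left the lower side. Genes of glutathione synthesis and recycling were present throughout, with 9 of 9 above 1 CPM and 0 past 2-fold. The highest per kilobase was *Gclc*, the catalytic subunit of the rate-limiting ligase, with 33.96 and 40.2 CPM, and the lowest was *Slc7a11* with 11.8 and 18.2 CPM. *Slc7a11* was also the lowest by the longest coding transcript, but there *Gss* was the highest, and in replicate 2 *Gsr* passed *Gclc* by exonic length. *Gsr*, which regenerates glutathione, had 18.5 and 29.7 CPM. Among the glutathione transferases, *Gstp1* was the highest per kilobase with 54.2 and 106 CPM, *Mgst3* was past 2-fold at 1.12 but with only 0.901 and 2.59 CPM, and *Gstt1* was below 3 reads in both libraries.

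NADPH feeds both glutathione reductase and thioredoxin reductase. All 6 genes of its supply lay above 1 CPM and 0 were past 2-fold. *Me1*, the malic enzyme, was the highest per kilobase of those with a length, with 265 and 298 CPM, and *Idh1* the lowest with 23.1 and 28.1 CPM. *Nnt* (13.9 and 13.2 CPM) has no value per length, because 2 genes carry that name in the annotation used.

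The machinery that inserts selenocysteine, needed for GPX1, GPX3 and GPX4, was expressed below those enzymes per kilobase of exonic length, at 0.982 to 6.90 CPM per kilobase against 52.6 for the lowest of the 3 enzymes. All 7 genes averaged 1 CPM or more and 0 were past 2-fold. *Sephs2*, which makes selenophosphate, was the highest per kilobase with 14.4 and 15.7 CPM, and *Pstk*, the kinase that acts on the serine-charged tRNA, the lowest with 8.99 and 6.55 CPM. Both ends turned with the length, and by the longest coding transcript *Trnau1ap* was the highest and *Sepsecs* the lowest. Of the 12 other selenoproteins, *Selenow* was the highest per kilobase of exonic length with 74.2 and 95.6 CPM, and *Selenof* was the highest by the longest coding transcript. *Selenop*, the secreted carrier of selenium, was the lowest, with 2.03 and 0.0712 CPM, the latter at about the level of 3 reads, so a ratio between the libraries is not firm. *Selenop* and *Txnrd1* were the 2 genes of these 12 past 2-fold, against 13.5% of all genes.

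Of the 13 listed genes of enzymes that produce oxidants, 4 averaged 1 CPM or more, against 12631 of all 23628 genes. The 4 were *Nox4*, *Qsox1*, *Ero1a* (listed as *Ero1l*) and *Ero1b* (listed as *Ero1lb*), and none of them was past 2-fold. *Nox4*, an NADPH oxidase that releases hydrogen peroxide, measured 123 and 79.3 CPM, a centred log2 ratio of -0.94. *Cyba*, another gene of the list, had 0.323 and 0.641 CPM, and the activity of the oxidase was not measured. *Ero1a* and *Qsox1*, which form disulfides in the secretory pathway and yield hydrogen peroxide, had 142 and 146 CPM and 167 and 240.3 CPM, and *Ero1b* had 3.63 and 3.65 CPM. *Ero1a* was the highest of the list by mean CPM per kilobase of exonic length, but *Qsox1* was above it in replicate 2 and, by the longest coding transcript, in both libraries. *Nox1*, *Cybb*, *Ncf4* and *Duox2*, which serve the phagocyte and epithelial oxidases, were listed at 0 in both libraries, and *Nox3* is not among the genes listed.

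The metal-binding genes were lower in replicate 2 after centring, with 0 of 4 above the median of all genes, although the ferritin light chain *Ftl1* had more CPM there. The metallothioneins *Mt1* (273 and 141 CPM) and *Mt2* (119 and 49.1 CPM), which bind zinc and copper, were past 2-fold, at -1.26 and -1.58, against a background of 6.06%, and only *Mt2* was without centring. *Mt2* was the lowest of the list per kilobase and *Ftl1* the highest, with 2410.5 and 2709 CPM, a level that can include reads shared with its processed copies.

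**Figure D5:**
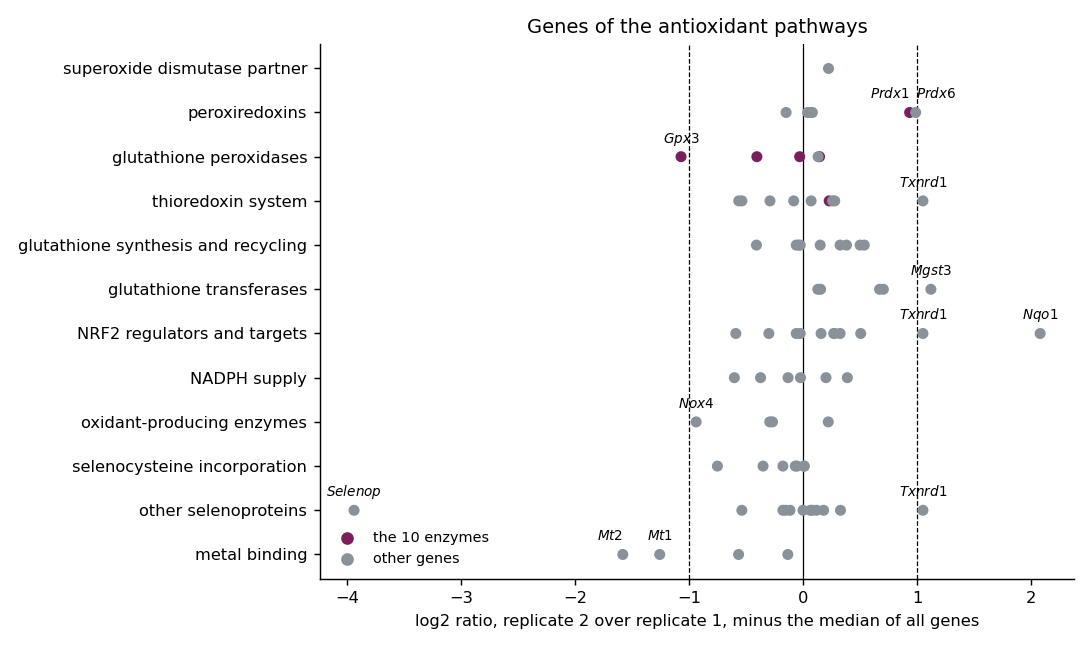
Centred log2 ratio of replicate 2 to replicate 1 for genes of 12 antioxidant lists, restricted to those averaging 1 CPM or more, the members in these lists in purple and other genes in grey, with 2-fold limits as dashed lines. *Sod1*, *Sod2*, *Sod3* and *Cat* are in none of the lists and are not drawn. Most points lie within the limits, *Nqo1*, *Mgst3* and *Txnrd1* lie above, and *Gpx3*, *Mt1*, *Mt2* and *Selenop* lie below.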

How the data were processed

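The material was RNA-sequencing data from *Sox9*-GFPHi chondrospheres, in 2 libraries made from poly(A) RNA with a stranded kit. Per the labels and the study's methods, the authors aligned single-end reads of 50 bases to GRCm38 with GENCODE M25 by STAR 2.7.3a, quantified genes by Partek E/M in Partek Flow 10.0.21.0801 and deposited CPM. The deposited CPM carry an offset of 0.0001, which was subtracted. Of the low values, 67.6% and 66.5% were whole multiples (within 0.05) of the step of 1 read, so counts could not be restored and a count model was not used. Methods state that each pup was a biological replicate, but the labels do not say so of these libraries.

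Means, SDs and log2 ratios (pseudocount 0.1 CPM) were computed, centred on genes averaging 1 CPM or more. Intervals from reads cover counting error only. Coordinates and lengths come from GENCODE M21 on GRCm38. Shared windows are exact sense matches among M21 transcripts. The members and all gene lists were chosen with earlier results of these data known. Named genes were all members, their families and, per list, the highest and lowest per kilobase and those past 2-fold or below 3 reads. *Txnip*, *Txnrd3* and *Nnt* were named outside these rules. *Nox4*, *Cyba*, *Qsox1*, *Ero1b*, *Gsto1*, *Gsr*, *Gss*, *Trnau1ap*, *Sepsecs*, *Selenof*, *Gclm*, *Srxn1*, *Nfe2l2* and *Keap1* were named after their values were seen. The code was tested on simulated data. Alternatives covered scaling, pseudocount, filter, length and leaving out each library. Python 3.11.15, numpy 2.4.6, pandas 2.3.3, biopython 1.88 and matplotlib 3.10.9 were used.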

Additional observations from a re-analysis of the deposited data

How the results depend on the processing

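For 23 results, 112 values were recomputed with 1 choice changed (or, for the total without the 10 highest genes, with centring dropped as well where ratios between libraries are concerned). Of these, 92 stayed within 1 SD of the libraries or kept a count within 1.5 times, 19 moved by more and 1 reversed. The limit for the median log2 ratio of members was instead 0.59. It is the SD of log2 ratios over genes averaging 1 CPM or more, scaled to 1 library. Dropping the centring took that median from 0.06 to 0.36, a shift too small to pass this wide limit. Staying within it therefore shows no stability of the median. Leaving out 1 of 2 libraries makes up 42 of the values and stays within 1 SD by arithmetic, so it shows no stability. The reversed value was the log2 ratio per length of *Sod1* to *Sod3*, which was -1.80 and became 0.83 by the longest coding transcript, because the exonic length of *Sod1* includes retained introns. The same change of length gave 4.17 for *Sod1* to *Sod2*, -3.34 for *Sod2* to *Sod3* and 0.88 for *Gpx1* to *Gpx7*, and no division by length gave 0.98, -2.69, 0.61 and, for *Prdx1* to *Txn1*, 2.13. Adding *Gpx4-ps2* to *Gpx4*, chosen after seeing the data, gave 0.82 for *Gpx4* to *Gpx1*. When the CPM total omitted the 10 highest genes, every member's value rose 1.75 times in replicate 1 and 1.53 times in replicate 2, as a smaller total requires. The count of members past 2-fold was 1 under each of the 9 alternatives of scaling, pseudocount, filter and copies, but it was *Prdx1* and not *Gpx3* in the 2 settings without centring, those with the full total and with the total that omitted the 10 highest genes. No paired analysis was possible because there is a single group.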
